A study of Mus musculus with 6 samples.

Results

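The villin and gelsolin family of actin-binding proteins was examined in BMMCs, mast cells grown from bone marrow, after 20 days of culture, when BALB/c cells were set against those of C57BL/6. The family was taken as 8 genes, Scin, Avil, Gsn, Capg, Flii, Vill, Svil and Vil1, of 35293 genes named in the tables, and 7 of them had enough reads to be tested. The set was chosen on the values of the strain comparison described here, in which Vill had been seen to differ, so the strain differences of its members are given as a description, and where a member is said to lie past the thresholds used for all genes this only places it and is no test. RNA of 3 BALB/c cultures (libraries S9, S10 and S11) was compared with that of 3 C57BL/6 cultures (libraries S12, S13 and S14). Bone marrow came from naive wild-type animals of either strain, and both sets of cultures grew with stem cell factor, TGF-β1, IL-9 and IL-3 and received no further stimulus before RNA was taken. The sources used here do not say whether the 3 cultures of a strain came from separate animals, so the spread given below is that between these libraries.

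Proteins of this family are built from repeats of the gelsolin domain, which binds actin and, in most members, needs calcium to do so. Gelsolin and its relatives cut actin filaments and then stay on the fast-growing end as a cap, and membrane phosphoinositides release them again. In mast cells, the actin layer under the membrane has to be opened for granules to reach the surface, and scinderin, also called adseverin, is known from secretory cells as a protein that does so in response to calcium. Villin, its relatives and supervillin carry in addition a headpiece, with which villin binds a further filament, and villin itself is known from the brush border of the gut.

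Between 28271211 and 37098659 reads per library were assigned to named genes. The cultures held the marker genes of mast cells, with at least 49502 reads of Kit, the stem cell factor receptor, in each library, and all 10 genes of the mast cell list were tested. Of these Hdc, the enzyme that makes histamine, passed both thresholds used here (adjusted p under 0.05 and a 2-fold change) with the higher level in C57BL/6 (log2 fold change 1.19, edgeR adjusted p = 0.000736). Of cell types known for one of the family genes, stromal fibroblasts (8 genes) left no gene to test, with 5 of the 8 at 0 reads in every library and a summed level of at most 0.0848 CPM (reads scaled to the size of the library, after TMM correction of that size). Of 8 megakaryocyte and platelet genes, Pf4 had at most 2 reads and Ppbp and Gp9 had 0, whereas Itga2b, Gp1ba and Vwf were tested. Vwf passed with the higher level in C57BL/6, going from 100.3 ± 16.1 to 226 ± 5.01 CPM (SD, n = 3 each), while Itga2b and Gp1ba, with log2 fold changes of 0.58 and -0.33, were short of 2-fold. The summed level of the list lay between 1511 and 1539 CPM in BALB/c and between 2071 and 2187 CPM in C57BL/6 BMMCs. Of 8 epithelial genes, Krt8, Krt20 and Cdx2 had 0 reads in every library, while Epcam and Cdh1 were tested, and the summed level was between 97.2 and 108 CPM in BALB/c and between 111 and 123 CPM in C57BL/6 BMMCs. Epcam passed both thresholds lower in C57BL/6, and Cdh1 had a log2 fold change of 0.48 in the other direction, short of 2-fold. All 8 basophil genes were tested and 4 of them passed both thresholds higher in C57BL/6, as did 7.73% of all genes tested. These were Cebpa, Prss34, Ccl9 and Mcpt8, with log2 fold changes of 6.53, 5.86, 5.52 and 1.12. Cebpa, Prss34 and Ccl9 had at most 13 reads in a BALB/c library. Of the other 4, Ms4a3 and Itga2 had log2 fold changes of 0.99 and 0.15, and Il18r1 and Cd200r3 of -0.54 and -0.07. The summed level of all 8 went from between 406 and 418 CPM to between 512 and 523 CPM. Of 6 erythroid genes 1 was tested, Hbb-bt, with 0 reads in each BALB/c library and 186, 160 and 214 in C57BL/6. It passed both thresholds higher in C57BL/6. Hbb-bt is a near-identical copy of Hbb-bs, so the division of reads between them is uncertain. Hbb-bs had 0 reads in each BALB/c library and 0, 3 and 0 in C57BL/6. The other erythroid genes had at most 10 reads in a library. Of 6 neutrophil genes 0 had enough reads to be tested. The part of these cell types in the differences below was not tested. In RNA of whole cultures, fewer cells of a type and less RNA per cell cannot be told apart.

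Scinderin dominated the family in both strains. TPM values, which are corrected for transcript length and so allow genes to be compared, added up over the 8 genes to between 2348 and 2353 in the BALB/c libraries and to between 2448 and 2594 in the C57BL/6 libraries. Scin held from 60.8% to 63.4% of this sum in BALB/c and from 54.2% to 55.5% in C57BL/6 BMMCs. With Avil, Gsn and Capg it held at least 96.0% in every library. Ranked by mean TPM among all named genes, Scin stood at place 101 in BALB/c and 108 in C57BL/6, and Avil at 298 and 239.

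In BALB/c BMMCs the order of the TPM levels was Scin, Avil, Gsn, Capg, Flii, Svil, Vil1 and Vill, and the ranges over the libraries of genes next to each other in this order did not overlap. Vil1 and Vill, the last in it, both lay at or under 3 reads in each of these libraries, so their order has no weight. In C57BL/6 BMMCs Capg moved before Gsn and Vill before Svil. There the ranges of Avil (from 376 to 438 TPM) and Capg (from 372 to 379 TPM) overlapped, and Avil was the higher in 2 of the 3 libraries, so these neighbours did not differ beyond their spread. All other neighbours in the C57BL/6 order were separate.

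**Figure D1:**
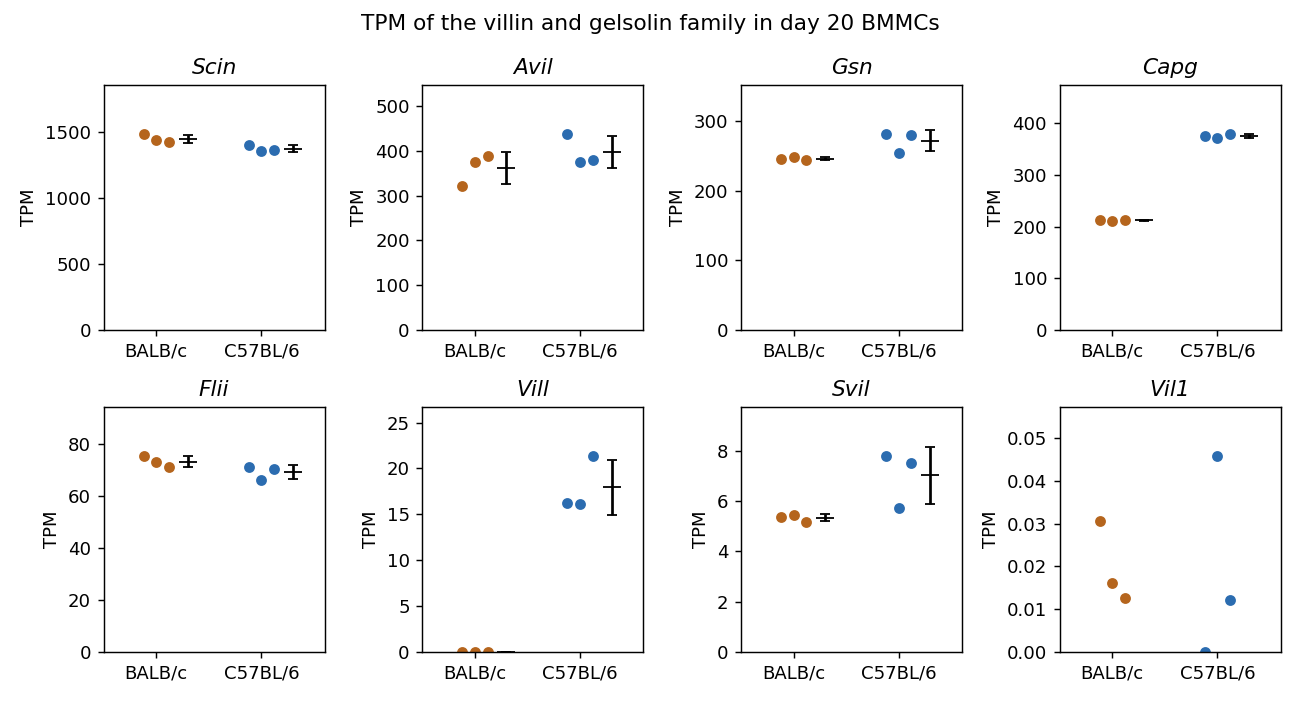
TPM values (vertical axes, each from 0 and with its own scale) of the 8 family genes in each BALB/c (brown) and C57BL/6 (blue) library, with the mean and SD of 3 libraries in black, left out for Vil1, which had at most 3 reads. Vill lies at 0 in the BALB/c libraries and between 16.2 and 21.4 TPM in C57BL/6, and Capg lies between 210.3 and 213 TPM in BALB/c and between 372 and 379 TPM in C57BL/6.

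Differences between the strains were estimated with edgeR on counts scaled by TMM factors, which correct library sizes for differences in RNA composition. Of the 7 family genes tested, 2 passed an adjusted p of 0.05 together with a 2-fold change, Vill and Capg, both higher in C57BL/6. Of all 12458 genes tested, 7.73% passed with the higher level in C57BL/6 and 5.54% with the higher level in BALB/c BMMCs, together 13.3%. Since the set was put together with this comparison known, nothing is read from the count. The median log2 fold change of the 7 genes was 0.32, against -0.01 over all genes tested.

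Vill encodes villin-like protein, a relative of villin with a headpiece whose function is little known. The gene, which GENCODE lists as protein-coding, spans chr9:118881839-118900593 of GRCm39 and is read forward. Its transcripts held 0 reads in each of S9, S10 and S11, and 672, 568 and 966 reads in S12, S13 and S14. Every C57BL/6 library thus stood above every BALB/c library, and against a limit of 3 counts per BALB/c library the C57BL/6 level was at least 252-fold higher. In length-corrected terms the C57BL/6 libraries reached 16.2, 16.2 and 21.4 TPM, between those of Flii and Svil.

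Most of the Vill signal came from short transcripts. The tables list 10 Vill transcripts, of which 7 had reads, and they fall into 3 short ones of at most 1748 bases and 7 long ones of at least 2578 bases. The short ones held 84.1%, 90.7% and 87.9% of the TPM of Vill in S12, S13 and S14. Most of this lay on 1 predicted transcript, XM_006512067.3 of 1658 bases, with 11.2, 14.7 and 17.8 TPM and 415, 481 and 740 estimated reads. Its share of the TPM of Vill was 69.0%, 90.7% and 83.1%, with a mean of 80.9%. The long transcript NM_001164567.1 of 2915 bases had 101, 30.7 and 0 estimated reads, and XM_006512062.2 of 2704 bases had 35.0, 46.3 and 158. A further short transcript, XM_006512065.3 of 1615 bases, had 88.2, 0 and 34.0 estimated reads. The division between these minor forms, long and short, thus differed from library to library, while XM_006512067.3 was the highest in all 3 libraries. Salmon, the program that assigned the reads, divides reads that match more than 1 transcript, so these shares are estimates.

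**Figure D2:**
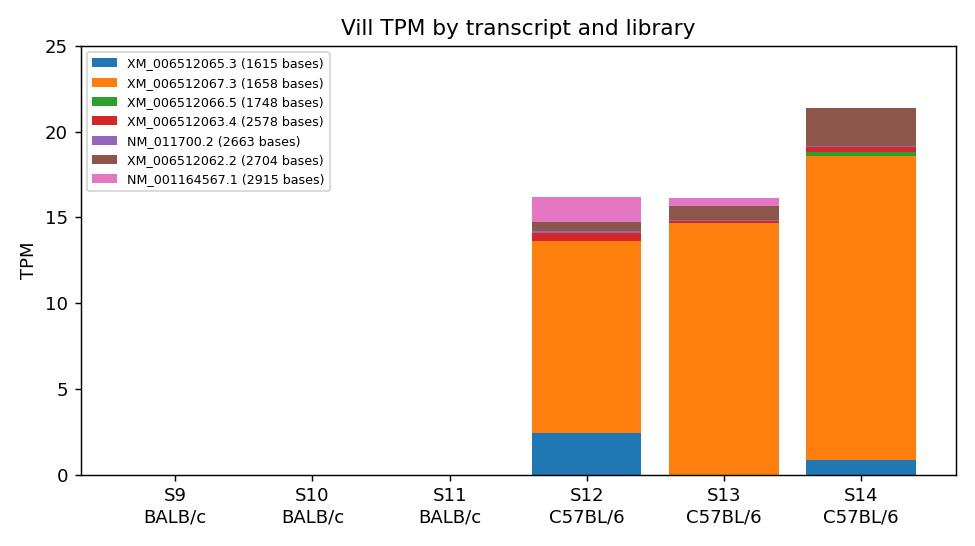
TPM of Vill (vertical axis) in each library, stacked by transcript, for the 7 transcripts with reads. The BALB/c bars are empty, and XM_006512067.3, in orange, holds from 69.0% to 90.7% of each C57BL/6 bar.

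GENCODE describes 2 places where Vill transcripts begin. Of its 18 transcripts, 13 begin within 200 bases of position 118881839 and 5 within 200 bases of position 118892516, which is 10677 bases further inside the gene. Of those beginning inside, Vill-207 and Vill-203 run to the end of the gene and are annotated as protein-coding, with 1838 and 1593 bases after splicing, whereas the complete coding transcripts of the upstream start have at least 2664 bases. The deposited tables give the length of a transcript but not its position, so which start the short RefSeq transcripts use was not determined. The windows of both starts are shown because the reads lay mainly on short transcripts. They are written 5′ to 3′ on the forward strand of GRCm39, which is the sequence of C57BL/6J, from 250 bases before the start to 50 bases after it, with the part from the start on in capitals. The upstream window is chr9:118881589-118881888 and the inner window chr9:118892266-118892565, of which 136 of 300 bases lie in exons of the coding transcripts that begin upstream.
Vill upstream start: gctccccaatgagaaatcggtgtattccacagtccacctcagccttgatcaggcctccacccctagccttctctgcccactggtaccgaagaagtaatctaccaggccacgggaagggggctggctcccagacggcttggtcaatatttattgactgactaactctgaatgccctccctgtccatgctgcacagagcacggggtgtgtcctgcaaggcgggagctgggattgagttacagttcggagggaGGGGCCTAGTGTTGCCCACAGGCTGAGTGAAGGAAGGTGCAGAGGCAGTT
Vill inner start: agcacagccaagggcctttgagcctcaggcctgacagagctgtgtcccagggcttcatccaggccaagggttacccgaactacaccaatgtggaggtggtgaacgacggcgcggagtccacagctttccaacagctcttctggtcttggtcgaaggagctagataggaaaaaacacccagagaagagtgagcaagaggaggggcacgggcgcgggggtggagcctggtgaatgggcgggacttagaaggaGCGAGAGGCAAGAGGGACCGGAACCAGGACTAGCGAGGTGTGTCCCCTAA

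Both windows were searched on both strands for a motif of GATA factors, written GATAA, which 25.4% of 32851 RefSeq promoter windows of the same length on GRCm38.p6 hold. The E-box was searched as CANNTG and is found in 72.3% of those windows. For ETS factors the letters were GAGGAA, found in 28.3%. For the TATA box they were TATAAA, found in 13.6%. Neither Vill window held any of the 4 motifs. The absence of these letters says nothing of the factors themselves, and the BALB/c sequence of these windows was not analysed here.

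Other genes near Vill did not share its pattern. Plcd1, which encodes a phospholipase C, overlaps the last 374 bases of Vill on the opposite strand and had 0, 0 and 9 reads in the BALB/c and 0 in each C57BL/6 library. Ctdspl, which ends 8652 bases before Vill and encodes a phosphatase, was lower in C57BL/6 by edgeR but short of 2-fold (log2 fold change -0.72 ± 0.11 SE, adjusted p = 0.00043). Golga4, a Golgi tether, had a log2 fold change of 0.34 ± 0.06 SE (edgeR adjusted p = 0.00142), and Dlec1 one of 0.27 ± 0.26 SE (edgeR adjusted p = 0.417), while Itga9, with at most 5 reads, was not tested. Acaa1b, a peroxisomal thiolase gene 76498 bases downstream, went the other way, with 64, 55 and 73 reads in BALB/c and 0 in each C57BL/6 library. It shares 17.1% of its words of 31 bases with its neighbour Acaa1a, so reads could be divided between them. Of the 5060 words of Vill, 0 occur in transcripts of another gene of GENCODE. Transcripts were compared in their own direction only, so sequence shared with an opposite strand, as with Plcd1, was not counted.

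Among all genes tested, those with a profile most like Vill were Rbpms, Gm33617 and Tmeff2. Likeness was measured over the 6 libraries as the root mean square difference of log2(CPM + 1), and was 0.19, 0.26 and 0.29. Rbpms, which encodes an RNA-binding protein, had 2, 3 and 2 reads in BALB/c and 854, 684 and 976 in C57BL/6. Tmeff2, a membrane protein with an EGF-like domain, went from 10, 9 and 11 reads to 708, 668 and 905.

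Capg encodes the macrophage capping protein, which caps filament ends without cutting them, and lies at chr6:72514955-72539970 (GRCm39). Its level was 212, 210.3 and 213 TPM in BALB/c and 374, 372 and 379 TPM in C57BL/6 BMMCs. The libraries of each strain lay within a few TPM of each other and the strains did not overlap. The fitted log2 fold change was 1.01 ± 0.04 (SE), just past 2-fold, and Svil, the next of the family by size, was well short of it with 0.57. On the TPM scale the ratio of the strain means was 1.77, below 2-fold. The change of Capg was also under 2-fold with plain library size (log2 fold change 0.86) and when S9, S10 or S13 was left out, where it was not below 0.997, so its place past the threshold depends on the scaling and on single libraries, and its direction does not. The transcripts NM_007599.4 and NM_001042534.3 divided the TPM of Capg in much the same way in both strains, the former holding 65.9% ± 3.96 in BALB/c against 61.9% ± 1.19, and the latter 32.2% ± 2.16 against 32.5% ± 1.28 (SD, n = 3 libraries each). The minor NM_001271395.1 held from 0.343% to 1.09% in BALB/c and from 2.29% to 3.55% in C57BL/6, ranges that did not overlap.

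Macrophages are rich in Capg. Of 8 macrophage genes, Adgre1 and Cd68 were tested and both passed the thresholds higher in C57BL/6, and the summed level of the list went from between 0.705 and 1.63 CPM to between 13.3 and 13.9 CPM. Adgre1 and Cd68 had log2 fold changes of 4.93 and 2.01 (edgeR adjusted p = 7.6e-06 and 3.54e-05). Of the other 6, Lyz2 and Mrc1 had at most 2 reads in a library, and C1qa, C1qb, C1qc and Csf1r had 0. The part of macrophages in the difference of Capg was not tested.

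Scin, the gene of scinderin, lies at chr12:40109755-40184227 (GRCm39) and is read in reverse. It had 1488, 1440.0 and 1430.0 TPM in S9, S10 and S11 and 1406, 1358 and 1366 TPM in S12, S13 and S14. On the TPM scale every C57BL/6 library was thus below every BALB/c library, by a ratio of 0.948. On counts scaled by TMM factors the direction was the opposite, going from 2893 ± 29.9 to 3099 ± 39.8 CPM (SD, n = 3 each) with a log2 fold change of 0.10 ± 0.03 (SE), and with plain library size it was -0.045. The sign of the small difference in Scin therefore depended on the scaling. Of its 2 transcripts, NM_001146196.1 held from 98.4% to 98.9% of the TPM in the 6 libraries.

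Avil encodes advillin, a relative of villin known from sensory neurons, and lies at chr10:126836578-126856863 (GRCm39). It had 321, 376 and 389 TPM in BALB/c and 438, 376 and 379 TPM in C57BL/6 BMMCs. The strains overlapped on this scale, S9 was the lowest and S12 the highest of all libraries. On TMM-scaled counts the strains did not overlap, and the log2 fold change was 0.31 ± 0.08 (SE). It was 0.22 without S9 and 0.17 with plain library size. NM_009635.3 held at least 98.5% of the TPM in each library.

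The start windows of Scin and Avil are shown as those of the family's most abundant genes. They are taken from RefSeq on GRCm38.p6, 250 bases before to 50 bases after the start, 5′ to 3′ on the strand of the gene, with capitals from the start on. The Scin window is chr12:40134179-40134478 on the reverse strand and the Avil window chr10:127000459-127000758 on the forward strand.
Scin start: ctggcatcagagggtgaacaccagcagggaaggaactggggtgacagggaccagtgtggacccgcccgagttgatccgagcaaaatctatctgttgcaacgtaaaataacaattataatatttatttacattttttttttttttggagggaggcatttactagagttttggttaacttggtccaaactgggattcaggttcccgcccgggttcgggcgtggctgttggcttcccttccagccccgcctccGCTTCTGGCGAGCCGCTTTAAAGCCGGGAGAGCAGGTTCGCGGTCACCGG
Avil start: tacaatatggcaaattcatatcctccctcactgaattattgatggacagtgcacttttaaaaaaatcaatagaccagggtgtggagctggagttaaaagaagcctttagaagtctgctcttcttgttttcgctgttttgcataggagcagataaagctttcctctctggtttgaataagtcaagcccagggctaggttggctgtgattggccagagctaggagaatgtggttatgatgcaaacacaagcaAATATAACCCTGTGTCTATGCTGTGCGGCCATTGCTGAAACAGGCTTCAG

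The Avil window held 1 match to the GATA motif, at position -101 from the start, and 1 to the ETS motif, on the strand opposite to the printed one. It held neither of the other two motifs, and the Scin window held 0 matches to all 4.

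Gsn encodes gelsolin, which cuts and caps filaments inside cells and is also secreted into plasma, and lies at chr2:35145967-35197917 (GRCm39). It had 245, 248 and 244 TPM in BALB/c and 282, 255 and 279.6 TPM in C57BL/6 BMMCs. Every C57BL/6 library was above every BALB/c library, with S13 the nearest to them. The log2 fold change was 0.32 ± 0.04 (SE), and 0.18 with plain library size. Of 8 Gsn transcripts, NM_001206367.1 held 86.6% ± 1.82 of the TPM in BALB/c and 89.1% ± 0.872 in C57BL/6 (SD, n = 3 each), and NM_001206368.1 held 8.05% ± 1.32 and 7.22% ± 2.57.

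Flii encodes flightless I, in which gelsolin repeats are joined to leucine-rich repeats and which also acts with nuclear receptors. It lies at chr11:60604935-60619454 (GRCm39) and is read in reverse. It had 75.4, 73.0 and 71.0 TPM in BALB/c and 70.9, 66.3 and 70.4 TPM in C57BL/6 BMMCs. The C57BL/6 values were lower by a ratio of 0.946 on this scale, with the strains nearly touching, while the log2 fold change on TMM-scaled counts was 0.10 ± 0.03 (SE) and with plain library size -0.048. As for Scin, the sign depended on the scaling. NM_022009.2 held from 71.9% to 81.0% of the TPM of Flii in BALB/c and from 80.3% to 84.3% in C57BL/6, ranges that overlapped.

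Svil encodes supervillin, a large membrane-associated member that ties actin and myosin to the membrane, at chr18:4920456-5119305 (GRCm39). It was expressed at a low level, with 5.38, 5.48 and 5.19 TPM in BALB/c and 7.83, 5.75 and 7.54 TPM in C57BL/6 BMMCs. The C57BL/6 libraries were all higher, but S13 lay close to the BALB/c libraries. The log2 fold change was 0.57 ± 0.09 (SE), 0.67 without S13, 0.50 without S12, 0.42 with plain library size and 0.33 on log2(TPM + 1). The tables list 22 Svil transcripts, of which 5 had reads. NM_001347449.1, of 6226 bases, held 78.0% ± 1.28 of the TPM in BALB/c and 82.8% ± 2.50 in C57BL/6 (SD, n = 3 each), and XM_030250415.2 held from 20.8% to 23.3% and from 14.2% to 18.3%, without overlap.

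Vil1, the gene of villin itself, at chr1:74448535-74475933 (GRCm39), had 2, 1 and 1 reads in BALB/c and 0, 3 and 1 in C57BL/6 libraries. The strains overlapped, and since all counts are at or under 3 reads no fold change is given. A difference was not detectable at this depth.

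**Figure D3:**
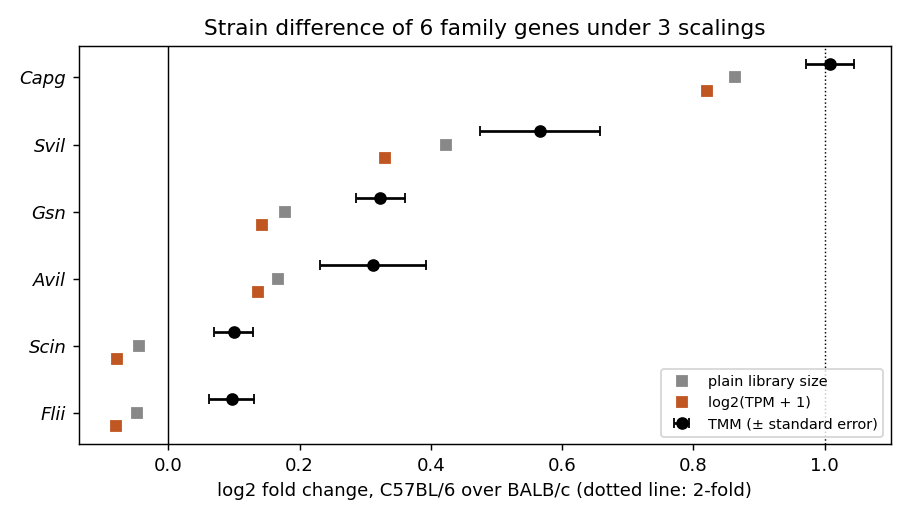
Strain difference (horizontal axis, log2 fold change, C57BL/6 to the right) of the 6 tested family genes that had reads in both strains, as fitted with TMM scaling (black, bars show the standard error), with plain library size (grey) and on log2(TPM + 1) (orange). All 6 lie above 0 with TMM scaling, Scin and Flii lie below 0 under the other scalings, and of these 3 scalings Capg crosses the 2-fold line with TMM alone.

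Scalings differed in the level they set for the whole table. With plain library size the log2 fold changes of all genes tested shifted by a median of -0.14, and on log2(TPM + 1) by -0.17, relative to TMM, and on the latter scale genes with few reads moved by other amounts. Differences of no more than this size, such as those of Scin and Flii, are therefore best read relative to that shift. Those of Avil and Gsn were larger, at 0.31 and 0.32 with TMM, and kept their sign. They fell to 0.17 and 0.18 with plain library size, so their size is also read relative to the shift.

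The rest of the actin machinery was examined to place the family in it. The 6 lists held 101 genes, of which 86 were tested, and 3 passed both thresholds with more in C57BL/6 and 3 with more in BALB/c BMMCs. Their median log2 fold change was 0.09. The 6 genes were 6.98% of those tested, where 13.3% of all genes tested passed in either direction, and nothing particular to the lists is read from this. Of the 17 tested genes that bind actin monomers or sever filaments outside the family, 0 passed both thresholds in edgeR, DESeq2 or limma. In edgeR 9 of them had an unadjusted and 8 an adjusted p under 0.05. Of the 5 tested actins and tropomyosins, 0 passed both thresholds with any of these tools. All 5 had an unadjusted and an adjusted p under 0.05 in edgeR and were short of 2-fold. The shares of all genes at these p limits alone were not computed, so nothing is read from these counts.

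Among the 12 tested genes of filament end capping, Tmod1 and Tmod4 were lower in C57BL/6. These tropomodulins cap the slow-growing end. Tmod1 had 25, 35 and 44 reads in BALB/c and 6, 3 and 2 in C57BL/6, and fitted at -3.12 ± 0.41 (log2 fold change ± SE, edgeR adjusted p = 0.000195). Tmod4 had 39, 34 and 54 reads against 5, 6 and 6, and fitted at -2.79 ± 0.28 (log2 fold change ± SE, edgeR adjusted p = 4e-05). Add2, or beta-adducin, which caps the fast-growing end and joins it to spectrin, rose from 59, 32 and 34 to 133, 133 and 154 reads, or by 1.81 ± 0.24 (log2 fold change ± SE, edgeR adjusted p = 0.000225). For Tmod1, Tmod4 and Add2 the libraries of the strains stood apart, but reads were few. The abundant Capzb, a subunit of capping protein, went from 351 ± 6.43 to 304 ± 3.41 CPM (SD, n = 3 each) and, at a log2 fold change of -0.21 (edgeR adjusted p = 0.000828), stayed short of 2-fold.

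Diaph2, a formin that starts and extends filaments, was the 1 gene of 25 tested nucleation genes past both thresholds. It had 142, 185 and 443 reads in BALB/c and 698, 398 and 555 in C57BL/6, so that S11 and S13 lay close together. Its log2 fold change was 1.20 ± 0.30 (SE, edgeR adjusted p = 0.00887), and it no longer passed without S9. Actn1, or alpha-actinin, which crosslinks filaments, was 1 of 12 tested bundling and linking genes, with 12, 0 and 10 reads against 35, 31 and 35 and a log2 fold change of 2.27 ± 0.56 (SE, edgeR adjusted p = 0.00784). Neither Diaph2 nor Actn1 passed when transcripts without a gene name were kept in the fit.

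Of 15 tested genes of lipid and kinase control, Plcg1, a phospholipase that cleaves the phosphoinositide to which gelsolin proteins bind, was lower in C57BL/6. It went from 176 ± 7.05 to 80.1 ± 1.03 CPM (SD, n = 3 each), or by -1.13 ± 0.04 (log2 fold change ± SE, edgeR adjusted p = 6.63e-08), and passed both thresholds under every alternative tried.

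The abundant genes of the machinery stayed under 2-fold. In BALB/c and C57BL/6 BMMCs, Actb stood at 5756 ± 47.1 and 6212 ± 86.6 CPM (SD, n = 3 each), Cfl1, the filament-severing cofilin, 1044 ± 20.8 and 1049 ± 16.7 CPM, and Pfn1, which binds actin monomers, 886 ± 24.5 and 899 ± 28.6 CPM. Actg1 and the monomer-binding Tmsb4x had log2 fold changes of 0.30 and 0.26 (edgeR adjusted p = 5e-05 and 0.000186), short of 2-fold. Actg1 shares 55.9%, Actb 19.8% and Cfl1 11.05% of words of 31 bases with other genes. Their values are therefore less certain than those of the family, none of whose tested members shares more than 0.98%.

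**Figure D4:**
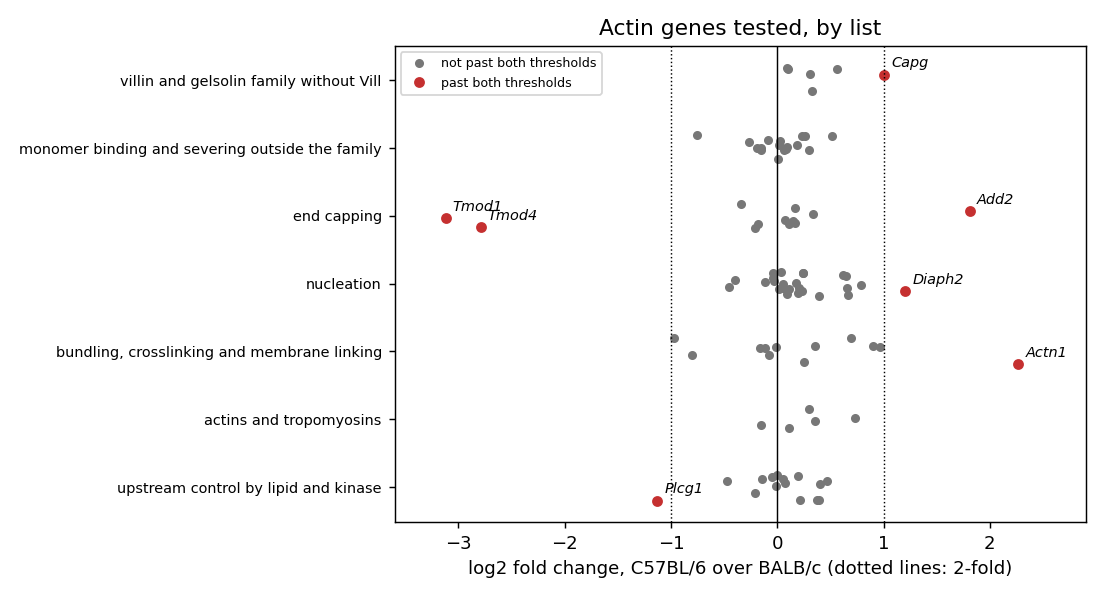
Strain difference (horizontal axis, log2 fold change, C57BL/6 to the right) of the tested genes of 6 actin lists and, at the top, of the family without Vill, 1 point per gene, with genes past both thresholds in red and named. In the lists 3 genes lie past 2-fold on each side, and the monomer binding and severing genes all lie within 2-fold.

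The genes beside each member along the chromosome were compared in the same way. Taking 3 protein-coding genes on each side of each of the 8 members gave 48 neighbours, of which 34 were tested, 2 passed both thresholds with more in C57BL/6 and 2 with more in BALB/c BMMCs. These 4 are 11.8% of those tested, close to the 13.3% of all genes tested that passed in either direction, so they are values and no result about the neighbourhood. One is Acaa1b, described above beside Vill, and the others are all neighbours of Svil. They lie at a distance from it, Jcad 237587, Map3k8 566993 and Arhgap12 905122 bases away. Jcad, a junction protein gene, rose from 15.0 ± 3.62 to 91.2 ± 3.83 CPM (SD, n = 3 each), or by 2.60 on the log2 scale (edgeR adjusted p = 4.18e-07). Map3k8, a kinase of inflammatory signalling, rose by 1.22 on this scale (edgeR adjusted p = 0.000317) and Arhgap12 fell by 2.36 (edgeR adjusted p = 5.78e-05). The tested neighbours of Capg, Scin, Avil, Gsn, Flii and Vil1 did not pass both thresholds.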

How the data were processed

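RNA of day 20 BMMCs was measured in 3 BALB/c and 3 C57BL/6 libraries. The authors checked reads with FastQC 0.11.5 and assigned them to transcripts with Salmon 0.8.2. The deposited tables give, for each of 129698 RefSeq transcripts, estimated counts, which need not be whole, and TPM values, which the authors' program derived from them by effective length. The methods name Ensembl GRCm39, whereas the tables list RefSeq accessions. Transcripts were named without their version through a RefSeq table of GRCm38.p6 (106430 matched), and the rest, which took 2.69% to 3.12% of reads, were left out. Reads are given rounded.

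Estimated counts were summed by gene, rounded and fitted with edgeR 4.0.16 (R 4.3.3, quasi-likelihood test, TMM factors from 0.940 to 1.05, minimum count 10, strain as the single term), with Benjamini-Hochberg adjustment over all 12458 genes tested. A gene passed at an adjusted p under 0.05 with at least 2-fold change. The scripts were tested on simulated data. There are 3 cultures per strain, and genes of few reads are measured with large counting error. Limits of 3 counts cover counting error only. Members, lists and tests were chosen with earlier results of these data known. Named are all members, actin list genes past both thresholds with Actb, Actg1, Cfl1, Pfn1, Capzb and Tmsb4x, the neighbours of Vill and its 3 most similar genes. The genes beside Svil were named after their values were seen. Alternatives were DESeq2 1.42.0 with and without a length offset, its size factors, plain library size, other count filters, log2(TPM + 1) and log2(TPM + 0.1) fitted by limma 3.58.1, unnamed transcripts kept as features, and each library left out. Positions are from GENCODE on GRCm39. Transcript shares are percents of the TPM of a gene. The level of 1 gene of the megakaryocyte and platelet list is not reported here.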

Additional observations from a re-analysis of the deposited data

How the results depend on the processing

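The median log2 fold change of the tested family genes was 0.18 with plain library size and 0.14 on both log2(TPM + 1) and log2(TPM + 0.1). These are smaller than the 0.32 reported but in the same direction. All genes tested shifted by a median of -0.14, -0.17 and -0.18 in these settings, in that order, so the smaller values are read relative to that shift. Leaving out single libraries gave family medians of 0.31 to 0.38. Scin was at -0.045 with plain library size and at -0.0776 on both TPM scales, and Flii at -0.048 with plain library size, -0.0798 on log2(TPM + 1) and -0.0808 on log2(TPM + 0.1), where both had been above 0. Vill was chosen on this contrast, so that it stayed past the thresholds in refits of the same libraries is no support, and a minimum of 10 counts per library removes it by construction. With the adjusted p alone, 58 of the 86 tested actin list genes passed. The share of all genes at that limit was not computed, so nothing is read from this count. The number of actin list genes past both thresholds was 1 (Plcg1) on log2(TPM + 1). It was 3 with a minimum of 10 counts per library, which drops Tmod1, Tmod4 and Actn1, and 6 to 8 without single libraries. The change of genes with low TPM is compressed by a pseudocount of 1. The share of Vill on its main short transcript was 76.0% to 86.9% without single C57BL/6 libraries and 74.4% of reads in place of TPM. The number of neighbours past both thresholds lay between 3 and 5 over all alternatives. No paired analysis was possible because the libraries of the strains share no replicate number. Depth limits Vil1, Actn1, Tmod1 and Tmod4, with few reads each.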
